A study of Mus musculus with 6 samples.

Results

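The 10 genes Dppa3, Dppa4, Dppa5a, Pou5f1, Lin28a, Lin28b, Sall4, Tfap2c, Prdm14 and Utf1, shared by primordial germ cells, pluripotent cells and early spermatogonia, were followed in THY1-positive spermatogonia of Ddx20 knockout and control mice. The members were taken by name, and all 10 of 10 were found by their Ensembl identifiers among the 22579 genes of the deposited count table. In the knockouts Dppa3, Dppa4 and Utf1 rose, and none of the others passed the test in either direction. All 3 calls ended when any 1 knockout library was left out. So did nearly all others, since 713 genes were called with all libraries and 5, 10 and 3 without knockout 1, 2 and 3. Dppa3 passed the filter on low counts through the knockout libraries alone. Dppa3 and Prdm14 were at or under the detection floor of 3 reads in some libraries.

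The libraries came from about 1000 cells each, collected at day 4, with 3 control libraries and 3 from Ddx20 knockout animals. Controls were littermates, and the labels shorten the knockout to cKO without naming a Cre line, a deleted exon or the strain. THY1 sits on the cell surface and is a common handle for sorting undifferentiated spermatogonia. The helicase DDX20 is a part of the SMN complex, on which splicing particles are put together. The comparison asks how these cells differ when Ddx20 is lost. Nothing in the labels ties a library to an animal, so the p-values reflect how far these libraries spread, and that spread may be technical.

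Germ cells arise in the embryo as primordial germ cells, which switch on a set of genes otherwise known from pluripotent stem cells. TFAP2C and PRDM14 act at their specification, POU5F1 supports their survival, and DPPA3 protects methylation marks in the early embryo. Most of this programme is switched off as male germ cells enter mitotic arrest and then become spermatogonia after birth. SALL4, LIN28A and UTF1 are known to persist in undifferentiated spermatogonia.

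Start regions were available from RefSeq (GRCm38.p6) for 4 of the 10 genes, namely Utf1, Pou5f1, Lin28a and Lin28b. They are shown for Utf1, which rose, and for Pou5f1, whose knockout libraries all lay above the controls. Lin28a, whose read counts overlapped between the groups, is shown as well. Each runs 5′ to 3′ on the strand of the gene and stops before the first base annotated as exon, and capitals mark the GC box, the letters GGGCGG on either strand, which SP1-type factors bind.
Utf1, chr7:139943606-139943788, plus strand: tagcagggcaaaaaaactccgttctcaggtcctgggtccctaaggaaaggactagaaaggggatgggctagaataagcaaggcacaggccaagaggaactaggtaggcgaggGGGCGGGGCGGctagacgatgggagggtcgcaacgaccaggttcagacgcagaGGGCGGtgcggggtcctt
Pou5f1, chr17:35505782-35506017, plus strand: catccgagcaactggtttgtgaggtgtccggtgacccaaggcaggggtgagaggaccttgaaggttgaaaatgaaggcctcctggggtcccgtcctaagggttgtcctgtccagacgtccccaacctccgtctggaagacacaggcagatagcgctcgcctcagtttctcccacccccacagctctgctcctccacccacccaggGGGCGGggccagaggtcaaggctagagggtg
Lin28a, chr4:134018842-134019066, minus strand: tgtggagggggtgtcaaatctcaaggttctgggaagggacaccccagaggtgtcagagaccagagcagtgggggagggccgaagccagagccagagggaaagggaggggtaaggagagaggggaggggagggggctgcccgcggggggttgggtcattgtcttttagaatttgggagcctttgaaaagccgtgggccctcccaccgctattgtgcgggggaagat
In the 250 bases before the start, Utf1 held 4 GC boxes, 3 of them in the bases printed, and Pou5f1 held 1. None was found in Lin28a, Lin28b or a further Pou5f1 entry inside the gene (chr17:35508557-35508804, not printed). Of 32851 start regions of that length, 32.7% held at least 1 GC box. The octamer ATGCAAAT, the letters that POU factors bind, was found on neither strand in the 4 genes and in 1.6% of all regions. Utf1 held 14 CG pairs, against a median of 6 over all regions, 8 in Pou5f1, 7 in Lin28a and 6 in Lin28b. A match is a description of the letters and shows no binding.

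Library totals lay between 8428871 and 12497967 reads, so that the floor of 3 reads lay between 0.230 and 0.287 CPM (reads scaled to library size, adjusted by TMM). Ddx20 itself gave 668, 383 and 531 reads in control libraries, with 128, 168 and 119 in knockout libraries, and fell by 1.89 ± 0.26 on the log2 scale (SE; edgeR adjusted p 0.0118). Its call ended without knockout 1 or 3 (adjusted p 0.0554 and 0.0620) and with knockout 1 and 2 pooled (0.0541 by edgeR), while the log2 fold change stayed between −2.19 and −1.60 in all 19 alternatives. Dazl, Ddx4 and the other 10 germ cell markers were detected in every control library, while Nanos2 had 0, 0 and 8 reads in the knockouts. Thy1, the sort antigen, had 73 to 143 reads in controls and 64 to 79 in knockouts. Mitochondrially encoded transcripts took at most 16.9% of reads in controls and at least 19.8% in knockouts. Knockout 1 and knockout 2 stood apart as a pair. Between them the chi-square averaged 1.78 over genes, against 11.96 or more for any other pair and 1 for sampling noise alone. Both entered as separate libraries, and each called member is also given with the pair counted as 1 library. Summed markers of 5 other cell types were higher in every knockout than in every control. Of the 40 tested markers behind these sums 7 were called, all higher. They were 3 Sertoli cell, 2 myoid and 2 T lymphocyte markers, with 0 endothelial or macrophage. These lists were picked by the rise of their sums, which favours calls in that direction. Among all tested genes 2.03% were called higher and 2.80% lower. The sums ran from 289 to 380 CPM in controls and from 510 to 660 CPM in knockouts for 12 Sertoli cell markers, of which Amh was at or under the floor in every library. The corresponding ranges were 115 to 193 and 214 to 314 CPM for 8 myoid and smooth muscle markers, and 54.5 to 56.6 and 76.2 to 79.5 CPM for 8 endothelial markers. They were 535 to 799 and 824 to 878 CPM for 8 macrophage markers, and 29.5 to 35.5 and 56.4 to 73.5 CPM for 8 T lymphocyte markers. The sums of the 7 Leydig cell markers in the table overlapped, at 35.7 to 68.5 and 48.7 to 68.1 CPM, and 0 of these markers were called. The 12 germ cell markers summed to 4198 to 5401 CPM in controls and 5423 to 5966 CPM in knockouts, most of it Dazl. Of these 12, 1 was called higher and 2 lower, and 8 had a log2 fold change below 0 (median −0.17). The part of these shifts in the results below was not tested, and in bulk samples fewer cells of a type and less RNA per cell cannot be told apart.

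Of the 10 genes, 9 passed the filter on low counts and were tested, and Prdm14 did not pass. Dppa3 passed through the knockout libraries alone, and Pou5f1 through 3 knockout and 2 control libraries. By the edgeR quasi-likelihood test 3 of the 9 were called higher and 0 lower (adjusted p under 0.05, by Benjamini-Hochberg across all 14766 tested genes). Among all tested genes 4.83% were called, 2.03% higher and 2.80% lower. Of all calls 57.9% were lower, and 83.6% with library size scaling. In CPM the knockout libraries all lay above the controls for Dppa3, Dppa4, Utf1, Dppa5a and Pou5f1, against 16.8% of all tested genes. They all lay below for Sall4, against 15.8%, and 32.6% of all tested genes were separate in either direction. Once knockout 1 and 2 were pooled into 1 library, edgeR called 1 gene in the whole table and 0 of the 9, of which 4 had an unadjusted p under 0.05, as did 2150 of 15406 genes. On the same pooled data DESeq2 and limma-voom each called Dppa4 and Utf1. DESeq2 gave no adjusted p there for Dppa3, Pou5f1 and Tfap2c.

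**Figure D1:**
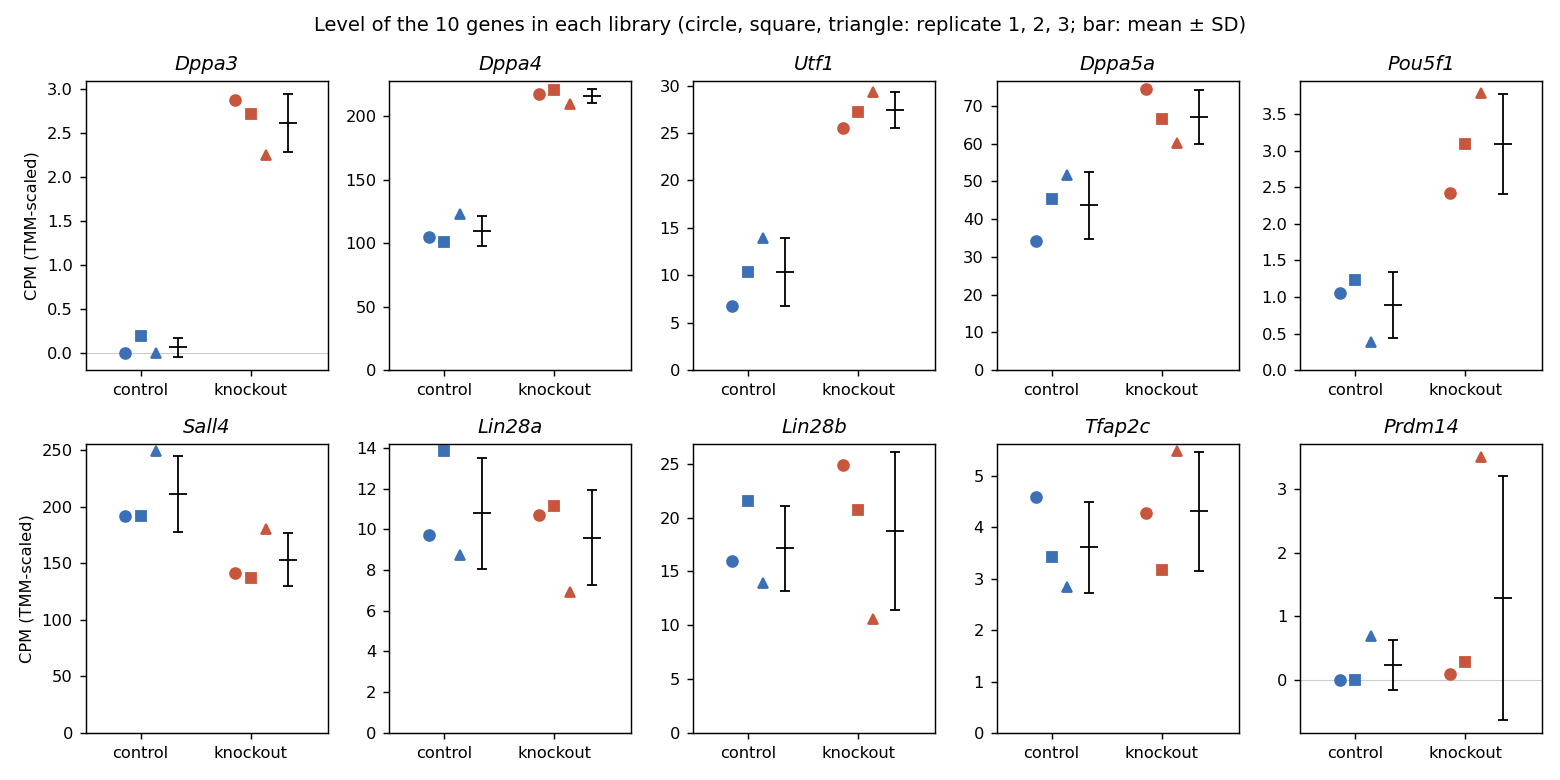
Each panel plots 1 gene in CPM scaled by TMM, with a point for each of the 3 control and 3 knockout libraries and a bar for the mean ± SD of each group. The groups do not overlap for Dppa3, Dppa4, Utf1, Dppa5a, Pou5f1 and Sall4, while Prdm14 is high in replicate 3 of each group.

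Among the developmental pluripotency-associated genes, Dppa3 had the largest fold change of the 9 tested members. That value rests on 2 control reads in all. The gene was tested only because 3 knockout libraries passed the filter on low counts, with 0 control libraries past it. Dppa3, also called Stella or PGC7, encodes a maternal factor and a classical marker of primordial germ cells (ENSMUSG00000046323, chromosome 6, 122626410 to 122630272, plus strand). Dppa3 reads numbered 0, 2 and 0 in controls, and 31, 30 and 25 in knockouts. All 3 controls were at or under the floor and all 3 knockouts above it. The ratio of summed reads relative to library size was 37.4, and counting error alone allows 10.04 to 314 (exact, 95%). In the fit its log2 fold change was 5.20 ± 1.18 (SE; edgeR adjusted p 0.0359). The adjusted p was 0.206 with knockout 1 and 2 as 1 library, 0.0509 without control 2, 0.0550 without control 3, and 0.204, 0.199 and 0.0914 without knockout 1, 2 and 3. Without control 2, the sole control with a read, the log2 fold change was 7.89. DESeq2 and limma-voom called Dppa3 with all libraries, at adjusted p of 0.00151 and 0.0285. With knockout 1 and 2 as 1 library limma-voom gave 0.174, and DESeq2 gave no adjusted p. Even in the knockouts its level was low, at 5.22 ± 0.736 TPM (reads scaled to exon length and library size; SD, n = 3).

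Dppa4 rose from an already high level. It encodes a SAP-domain chromatin protein that works with DPPA2 (ENSMUSG00000058550, chromosome 16, 48283733 to 48294237, plus strand). Its reads numbered 1097, 1063 and 1609 in controls and 2338, 2434 and 2331 in knockouts, or 105, 101 and 123 CPM against 217, 221 and 209.8 CPM. The 3 knockouts lay within 1.05 times of each other and well above every control. The means were 110 ± 11.99 and 216 ± 5.601 CPM (SD, n = 3 per group), which is 1.97-fold, and the log2 fold change was 0.98 ± 0.15 (SE; edgeR adjusted p 0.0119). With knockout 1 and 2 as 1 library the adjusted p was 0.0894 by edgeR, 0.00114 by DESeq2 and 0.00582 by limma-voom. Leaving out knockout 1, 2 or 3 gave 0.0805, 0.0875 and 0.0620, and removing the trend with exon length and GC content lowered the log2 fold change to 0.65. Its partner gene Dppa2, which lies 9671 bases away, did not pass. Dppa2 had 38, 108 and 115 reads in controls and 93, 90 and 137 in knockouts, and differed by 0.36 ± 0.40 (SE, log2; edgeR adjusted p 0.634). No test of the difference between the Dppa4 and Dppa2 changes was made.

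Dppa5a did not pass, although its groups were separate in CPM. It encodes a KH-domain RNA-binding protein of pluripotent and germ cells (ENSMUSG00000060461, chromosome 9, 78367052 to 78368177, minus strand). Control reads were 357, 477 and 673 and knockout reads 802, 733 and 669. In CPM these were 34.1, 45.3 and 51.6 against 74.6, 66.5 and 60.2, so the lowest knockout stood close above the highest control. In TPM, which has no TMM adjustment, the groups overlapped, at 156, 141 and 198 in controls against 216, 193 and 169 in knockouts. The log2 fold change was 0.62 ± 0.19 (SE; edgeR adjusted p 0.0829), and 0.31 after the same trend was removed. DESeq2 and limma-voom called it with all libraries, at adjusted p of 0.0404 and 0.0147. Its value is uncertain, since transcripts of 10 other annotated genes matched it at 90.2% to 97.2% identity over at least 150 bases. They include the pseudogenes Dppa5b and Dppa5c and a transcript of Pigp. Of the 10 only Pigp was in the deposited counts, with 430, 630 and 657 reads in controls and 558, 585 and 685 in knockouts. Dppa3 and Dppa4 each had 2 pseudogenes of that kind, at up to 98.2% and 99.4% identity. None of these was in the deposited counts, and the values of Dppa3 and Dppa4 carry the same uncertainty.

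Utf1, a chromatin-bound factor of embryonic stem cells and early spermatogonia, rose in the knockouts (ENSMUSG00000047751, chromosome 7, 139943789 to 139945112, plus strand). Control libraries held 71, 109 and 182 reads and knockout libraries 275, 300 and 326, which is 6.78, 10.3 and 13.95 CPM against 25.6, 27.2 and 29.3 CPM. Every knockout lay clear of every control. Means were 10.4 ± 3.58 and 27.4 ± 1.90 CPM (SD, n = 3 per group), a 2.64-fold difference. The log2 fold change was 1.40 ± 0.28 (SE; edgeR adjusted p 0.0256). The controls differed among themselves by 2.06 times and the knockouts by 1.15 times. The adjusted p was 0.126 with the pair as 1 library by edgeR, 0.0169 by DESeq2 and 0.0203 by limma-voom. It was 0.0660 without control 2 and 0.120, 0.131 and 0.0858 without knockout 1, 2 and 3. Utf1 transcripts are GC-rich, at 63.5%, and once the trend with length and GC content was taken out the adjusted p was 0.0498.

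Pou5f1, which encodes the transcription factor OCT4 at the core of the pluripotency network, was low in every library (ENSMUSG00000024406, chromosome 17, 35506018 to 35510772, plus strand). It had 11, 13 and 5 reads in controls and 26, 34 and 42 in knockouts. All 6 libraries were above the floor of 3 reads, and each knockout lay above each control. The log2 fold change of 1.80 ± 0.70 (SE) did not pass, with an edgeR adjusted p of 0.151. None of the alternatives that gave an adjusted p called it (0.0876 to 0.435). Pou5f1 shares 317 exon bases with the antisense gene Gm19553, which was not among the genes of the deposited counts. The strand setting of the counts is not given, so the source of reads from those bases cannot be told apart.

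In CPM, Sall4 was the only tested gene of the group with every knockout below every control. It encodes a zinc finger factor needed for spermatogonial differentiation and for pluripotency (ENSMUSG00000027547, chromosome 2, 168748332 to 168767943, minus strand). Its CPM values were 191, 192 and 249.5 in controls and 142, 137 and 180.1 in knockouts. Knockout 3 was the highest knockout and came close to control 1, the lowest control. The means were 211 ± 33.5 and 153 ± 23.6 CPM (SD, n = 3 per group), and the fit put the log2 fold change at −0.46 ± 0.18 (SE; edgeR adjusted p 0.144). The log2 fold change was −0.73 with an adjusted p of 0.0337 with library size scaling, which moved the median of all genes from 0.01 to −0.26, and limma-voom called it at 0.00803. Its antisense neighbour Gm14261 shares 526 exon bases and had at most 5 reads in any library.

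Tfap2c and Prdm14, the specification factors, were at a low level. Tfap2c, an AP-2 transcription factor gene, had 48, 36 and 37 reads in controls and 46, 35 and 61 in knockouts (ENSMUSG00000028640, chromosome 2, 172549593 to 172558622, plus strand). Its groups overlapped, with a log2 fold change of 0.26 ± 0.44 (SE) and an edgeR adjusted p of 0.775, and the sign turned to −0.03 with library size scaling. Prdm14, a PR-domain factor gene, was not tested (ENSMUSG00000042414, chromosome 1, 13113457 to 13127163, minus strand). It had 0, 0 and 9 reads in controls and 1, 3 and 39 in knockouts. Only replicate 3 of each group was above the floor, and the groups overlapped. Without a filter its log2 fold change was 2.39, with an edgeR adjusted p of 0.404.

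The RNA-binding genes Lin28a and Lin28b, whose proteins block maturation of let-7 microRNAs, did not pass the test in either direction. Lin28a had 102, 146 and 114 reads in controls and 115, 123 and 77 in knockouts (ENSMUSG00000050966, chromosome 4, 134003330 to 134018841, minus strand). That is 9.74, 13.9 and 8.74 CPM against 10.7, 11.2 and 6.93 CPM, and the groups overlapped. In TPM, which has no TMM adjustment, Lin28a stood at 6.88, 6.70 and 5.20 in controls against 4.80, 5.02 and 3.02 in knockouts. On that measure every knockout lay below every control. How common this was among all tested genes in TPM was not counted. Library size scaling, which also lacks TMM, put the median tested gene at −0.26 on the log2 scale. The separation of Lin28a in TPM therefore cannot be set apart from such a general shift. Lin28b had 167, 227 and 182 reads in controls and 268, 228 and 118 in knockouts (ENSMUSG00000063804, chromosome 10, 45376620 to 45486395, minus strand). In CPM it stood at 15.95, 21.5 and 13.95 against 24.9, 20.7 and 10.6, so that knockout 1 was the highest and knockout 3 the lowest of all 6 libraries. Log2 fold changes were −0.17 ± 0.32 (SE) for Lin28a and 0.13 ± 0.32 (SE) for Lin28b, with edgeR adjusted p of 0.7995 and 0.851. The sign of Lin28a turned without control 2 or without knockout 3 (to 0.07 and 0.02). That of Lin28b turned with library size scaling (−0.11), without knockout 1 (−0.12) and, at nearly 0, without control 3. It also turned with the pair as 1 library, to −0.03 by edgeR, −0.04 by DESeq2 and −0.19 by limma-voom. Lin28a shares 234 exon bases with Gm13061 on the other strand, which was not among the genes of the deposited counts.

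**Figure D2:**
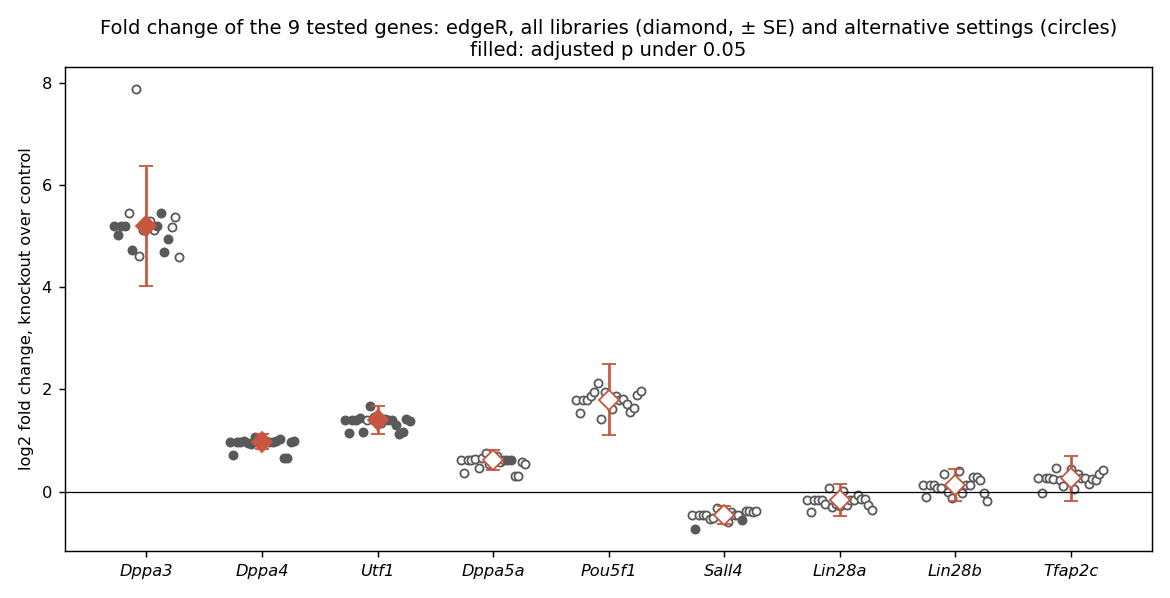
The log2 fold change of each of the 9 tested genes is plotted for edgeR with all libraries (diamond with SE) and for the alternative settings (circles), filled where the adjusted p was under 0.05. Dppa3 at 5.20, Utf1 at 1.40 and Dppa4 at 0.98 are filled diamonds, and Lin28a, Lin28b and Tfap2c lie on both sides of 0.

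Levels between genes were compared per exon length, in TPM. In controls Dppa5a and Dppa4 came first, at 165 ± 29.6 and 157 ± 34.6 TPM (SD, n = 3), and their libraries overlapped. They were followed by Sall4 at 90.5 ± 21.0, Utf1 at 19.6 ± 6.41, Lin28a at 6.26 ± 0.924, Lin28b at 4.41 ± 0.674 and Tfap2c at 2.38 ± 0.984 TPM. From Dppa4 to Tfap2c each gene was above the next in every control library, also above the highest library of the next. Pou5f1 followed at 0.929 ± 0.471 TPM, and it, Prdm14 and Dppa3 could not be separated. In knockouts Dppa4 came first at 231 ± 9.89 TPM, above Dppa5a at 193 ± 23.4, Sall4 at 49.0 ± 6.65 and Utf1 at 39.6 ± 2.14 TPM, with no overlap between neighbours. Below Utf1 came Dppa3, Lin28a, Lin28b, Pou5f1, Tfap2c and Prdm14 by mean, and each overlapped its neighbour, so the order of neighbours was not resolved. The lowest libraries of Dppa3 and Lin28a (4.39 and 3.02 TPM) still lay above the highest of Pou5f1, Tfap2c and Prdm14 (2.93, 2.60 and 2.38 TPM). Dppa3 was last by mean in controls and came next after Utf1 in knockouts. By its mean TPM, Dppa4 was higher than 95.1% of tested genes in controls and 96.9% in knockouts, and Pou5f1 than 12.2% and 33.6%. The ratio of Lin28a to Lin28b in TPM was 1.39, 1.46 and 1.42 in controls and 0.973, 1.22 and 1.48 in knockouts, and the groups overlapped.

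**Figure D3:**
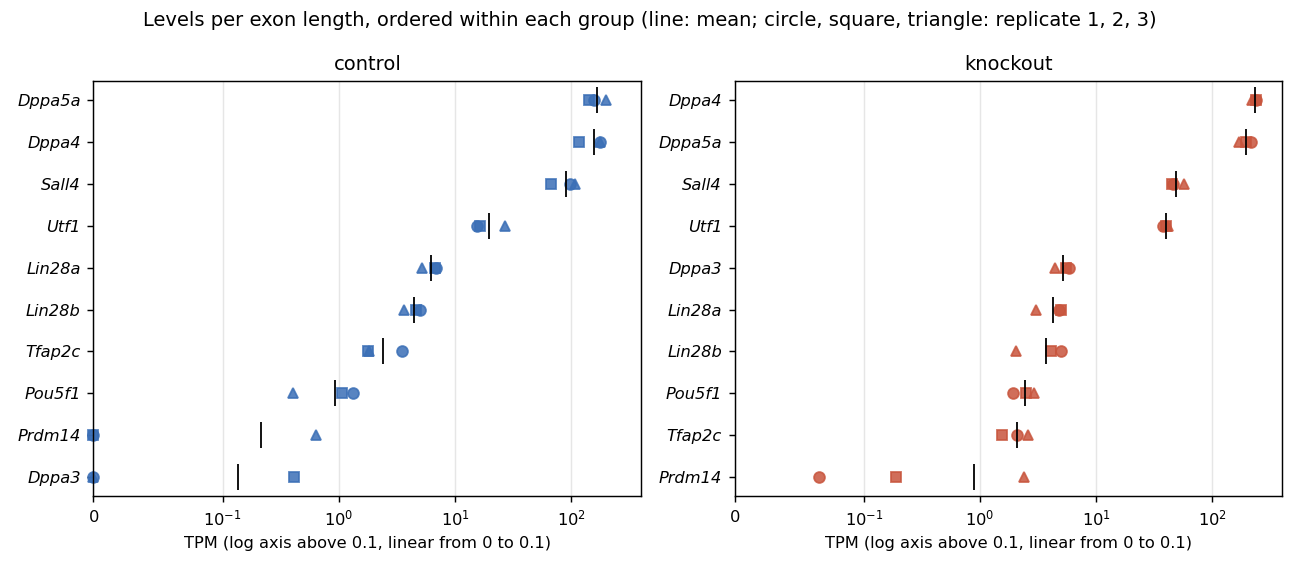
TPM of each gene in the 3 libraries of a group, ordered by the group mean (line), on an axis that is linear from 0 to 0.1 and logarithmic above. Dppa5a and Dppa4 lead in both groups, and Dppa3 is last in controls and next after Utf1 in knockouts.

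Other genes of the same programme were read from lists chosen with earlier results of these data known. Of 24 pluripotency network genes 19 were tested, 0 were called higher and 1 lower (median log2 fold change −0.09, against 0.01 over all tested genes, of which 2.03% were called higher and 2.80% lower). Rif1, a replication timing and telomere chromatin gene, fell by 0.84 on the log2 scale (173 ± 39.0 CPM in controls, 96.7 ± 8.16 in knockouts, SD, n = 3). Tcl1, a coactivator gene of AKT, Jarid2, a Polycomb cofactor gene, and Klf4 did not pass, with log2 fold changes of 0.22, −0.70 and −0.40. Of the 17 primordial germ cell genes 15 were tested, and 3 were called higher and 2 lower (median −0.42, and −0.19 without control 1). Ifitm3 and Ifitm1, interferon-inducible membrane protein genes that mark nascent germ cells and are also expressed outside the germ line, rose with log2 fold changes of 1.26 and 0.98. Mael, a piRNA pathway gene, rose by 0.79 on the log2 scale. Kit, the receptor of stem cell factor, fell by 1.02 and the chromatin remodeller gene Hells by 0.71 on the log2 scale. Dazl, Ddx4 and Piwil2 did not pass, with log2 fold changes of 0.18, 0.35 and −0.42. EdgeR adjusted p ran from 0.0119 for Ifitm1 to 0.0475 for Mael.

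The other 3 lists held genes around LIN28, partners of the transcription factors and relatives of the members. Some genes sat in more than 1 of the lists. Beside the counts below, 2.03% of all tested genes were called higher and 2.80% lower. Of 17 tested genes of the LIN28 and let-7 axis 0 were called higher and 2 lower (median −0.38, −0.18 with the length and GC trend removed, −0.22 without knockout 3). Trim71, a let-7 target and stem cell ubiquitin ligase gene, fell by 1.14 ± 0.17 (SE) on the log2 scale, with control libraries at 111 ± 17.8 CPM and knockouts at 50.2 ± 4.47 (SD, n = 3). Drosha, which encodes the nuclease of the first step of microRNA maturation, fell by 0.82 on the log2 scale. Syncrip, Tut4 and Dicer1 did not pass, with log2 fold changes of −0.46, −0.40 and −0.38. Of 19 tested partners of SALL4, TFAP2C and PRDM14, 0 were called higher and 2 lower (median −0.49). These were Dmrt1, with a log2 fold change of −0.84, and Chd4, the remodeller of the NuRD complex, with −0.61. Rbbp7, Hdac2 and Gatad2a did not pass, at 0.27, −0.29 and −0.51. Among 15 tested relatives of the 10 genes Sall1 fell by 1.45 on the log2 scale and 0 rose (median 0.23, −0.08 with library size scaling, −0.09 without control 3, −0.02 without knockout 3, 0.03 without control 1). Pou3f1, Pou2f1 and Prdm16 did not pass, at −0.57, −0.42 and 0.33. Of the 11 called genes in these lists, edgeR called 0 with knockout 1 and 2 as 1 library DESeq2 called 10 and limma-voom 7. EdgeR called 0 without any one of the knockouts and 3 without control 2. Medians of the lists ranged over all alternatives from −0.36 to 0.11 (pluripotency network), −0.68 to −0.19 (primordial germ cell genes), −0.64 to −0.18 (LIN28 and let-7 axis), −0.77 to −0.33 (partners) and −0.09 to 0.35 (relatives). Chd4, Mael and Sall1 lost their calls with the length and GC trend removed, and they and Hells with the replicate block.

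**Figure D4:**
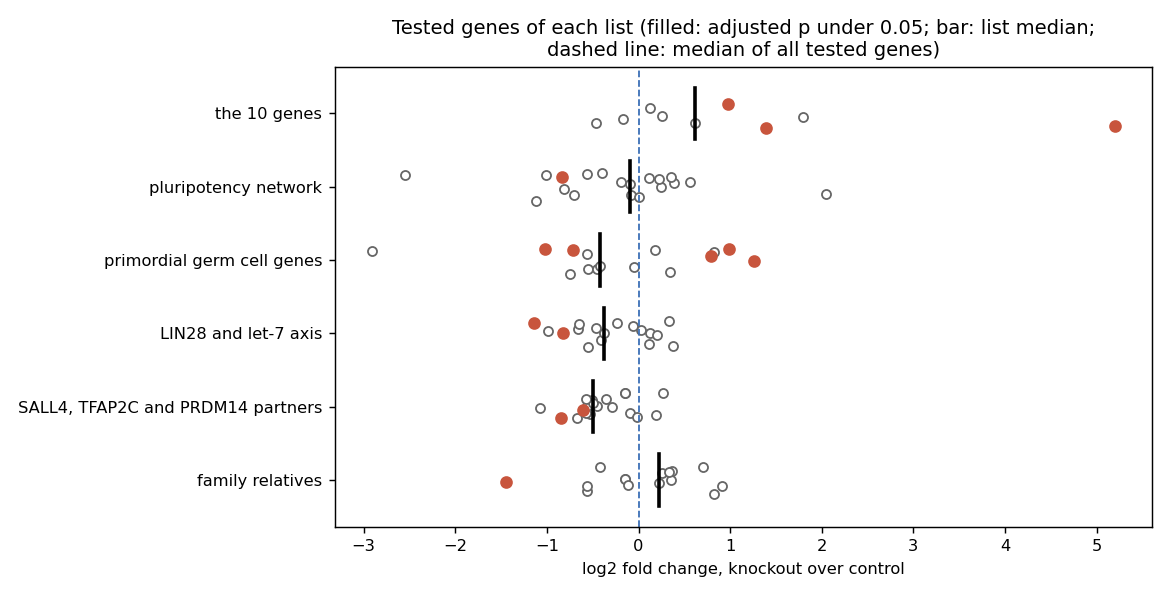
Each point is the log2 fold change of 1 tested gene, in rows for the 10 genes and the 5 lists, filled where the edgeR adjusted p was under 0.05, with a bar at the median of the row. The 3 called genes of the top row lie to the right of the dashed line at the median of all tested genes, and the called genes of the other rows lie to its left apart from Ifitm1, Ifitm3 and Mael.

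Genes whose pattern over the 6 libraries was most like that of a member were sought for the 6 members with a mean of at least 5 CPM, by Pearson correlation of log2 CPM with 7712 protein-coding genes. The values describe 6 points that share 2 genotypes and a near-identical pair, and no test was made. Dppa4 was closest to Rgs1, Uqcrfs1 and Sparc (r of 0.999, 0.998 and 0.998), and Utf1 to Id3 and Fam92a (0.997 and 0.995). Dppa5a was closest to Nbdy, Atg5 and Snapin (0.996, 0.995 and 0.994), and Sall4 to Immt, Cenpl and Twf1 (0.997, 0.996 and 0.988). Lin28a was closest to Ugp2, Dusp16 and Got2 (0.993, 0.988 and 0.981). Lin28b had the weakest likeness, with Thap12, Natd1 and Rnf34 (0.968, 0.957 and 0.953).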

How the data were processed

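Read counts per Ensembl gene were deposited by the authors for 6 SMART-seq2 libraries. The submitters' processing notes name mm10, STAR 2.7.5c, Trimmomatic 0.39, edgeR, DESeq2 and StringTie 2.1.7, with no roles. What counted the reads, with which strand setting and filter, is not given in the sources used here. Neither the deposited column of mean signal over libraries nor that of summed counts was used. SMART-seq2 carries no molecular identifiers, so intervals and floors cover counting error only.

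Symbols, positions and exon lengths came from GENCODE M21 (GRCm38), and 22562 of 22579 identifiers matched. The test was edgeR 4.0.16 (quasi-likelihood, robust, TMM, filterByExpr, genotype alone) in R 4.3.3 on all genes. SE was derived from the log2 fold change and its F value. Alternatives used DESeq2 1.42.0 and limma 3.58.1, other scalings and filters, a replicate block and left-out libraries. The length and GC trend (lowess, span 0.3) and the pair as 1 library under DESeq2 and limma-voom were added after seeing the data. TPM used exon union lengths, and similar transcripts were found with blastn 2.17.0. The tests were tried on simulated data with a common dispersion, independent libraries and no changed genes at low counts. Those trials do not cover the near-identical knockout pair or low genes such as Dppa3 and Pou5f1. All p-values are two-sided.

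The genes named were the 10 members, Ddx20, up to 5 called members of each list with the 3 most abundant not called, and the 3 most similar genes of each member, 1 of which is not reported here. Members and lists were chosen with earlier results of these data known. Thy1, Dppa2, Nanos2, Amh, Nanog, Gdf3 and L1td1 were named after their values were seen.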

Additional observations from a re-analysis of the deposited data

How the results depend on the processing

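All 9 tested genes kept their direction under every alternative except Lin28a, Lin28b and Tfap2c. Leaving out any 1 knockout ended every call among them. Over all genes 5, 10 and 3 were then called without knockout 1, 2 and 3, against 713 with all libraries. Leaving out 1 library gave 0 to 3 called genes of the 10, 0 to 3 of them higher and 0 lower, and 3 to 839 over all genes, 2 to 414 higher and 1 to 468 lower. Counting knockout 1 and 2 as 1 library gave 0 by edgeR, 0 higher, and 1 over all genes, 1 higher and 0 lower. With DESeq2 in that setting 465 genes were called, 259 lower, and with limma-voom 408, 198 lower. With all libraries DESeq2 called 1641 genes, 794 higher and 847 lower. Limma-voom called 2765, 1090 higher and 1675 lower, and 5 of the 10, 1 of them lower (Sall4). Library size scaling called 1378 genes, 1152 lower (83.6% of calls against 57.9% with TMM), and 1 of the 10 lower (Sall4). The cause was not tested.

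The replicate block gave 683 called genes and 2 of the 10, and Dppa3 lost its call (edgeR adjusted p 0.0532). Same-numbered libraries had correlations of deviations of 0.0769, −0.00753 and 0.124 over 7950 genes. They were not all over 0.1, and libraries 1 and 2 of the controls did not correlate best with their own number. The numbers were therefore not used as pairs. Control 3 did correlate best with knockout 3. Knockout 1 and 2 were nearly alike, so the check cannot tell which of them would go with control 1 or control 2. With block and length and GC trend together Dppa4 and Utf1 were called. For Dppa3 and Prdm14 in controls, depth limits what can be seen to about 3 reads.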

Other observations

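Nanog, a core pluripotency gene 77217 bases from Dppa3, did not pass the test. It had 10, 205 and 16 reads in controls and 34, 139 and 50 in knockouts, a log2 fold change of −0.09 ± 0.96 (SE; edgeR adjusted p 0.971). The libraries numbered 2 were the highest of each group. The log2 fold change was 2.62 without control 2 (edgeR adjusted p 0.0912), −0.90 without knockout 2 and 0.87 with the replicate block, so its direction rests on single libraries. Knockout 1 and 2 were otherwise close, and Nanog ranked 16th of 14939 genes by the chi-square between them (61.5). Gdf3, a growth factor gene 16323 bases from Dppa3, had 71, 141 and 22 reads in controls and 17, 42 and 51 in knockouts. None of the 9 tested genes within 250 kb of Dppa3 was called by edgeR. Around all 10 genes 68 other genes were tested in such windows and 4 were called, 3 higher and 1 lower, against 4.83% of all tested genes.

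L1td1, an RNA-binding protein gene of pluripotent cells, had 1, 7 and 12 reads in controls and 36, 21 and 21 in knockouts. The groups did not overlap, and the log2 fold change of 2.05 ± 0.88 (SE) did not pass (edgeR adjusted p 0.187). Of the 19 tested pluripotency network genes, 1 had every knockout above every control in CPM and 4 had every knockout below. Among all tested genes the shares were 16.8% and 15.8%.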
